A study of Mus musculus with 2 samples.

Results

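The Cyp2j subfamily of cytochromes P450 and the epoxide hydrolases Ephx1 and Ephx2 were examined in liver RNA of Pgrmc1 KO and WT mice. The members were chosen by symbol, as the 7 Cyp2j genes and 2 epoxide hydrolase genes among the 24054 genes of the deposited expression table. Each genotype was represented by 1 library, made from equal masses of liver RNA (2.5 μg) of each of 5 male C57BL/6 mice aged 8 to 12 weeks. The KO animals (Pgrmc1 -/Y) carried a whole-body deletion, made by crossing a conditional allele with loxP sites to Sox2-Cre mice, in which Cre acts in the early embryo. C57BL/6 is the strain in the labels, and the study's methods give C57BL/6N for the floxed mice. Whether the WT animals carried Cre or the conditional allele was not given in the sources used here. Because the animals were pooled before sequencing, the spread between mice was not measured. Differences between the libraries therefore lack a replicate check, and no p-value was computed. The unit of the table is TPM, a share of all transcripts that accounts for their length and so allows levels to be compared between genes. An estimated 22086692 reads in KO and 29710419 reads in WT fell on genes. Pgrmc1 itself checks the labels and stood at 0.68 TPM in KO against 949.49 in WT.

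P450 epoxygenases sit in the membrane of the endoplasmic reticulum, take electrons from the reductase Por, and add an oxygen atom across a double bond of arachidonic acid and other polyunsaturated fatty acids. The products, such as the epoxyeicosatrienoic acids, are lipid signals with effects on blood vessels, inflammation and ion transport. Epoxide hydrolases end their action by adding water to the epoxide, which gives a diol. Ephx2 encodes the soluble enzyme, the main hydrolase of fatty acid epoxides, and Ephx1 the microsomal enzyme, best known for opening epoxides of drugs and aromatic compounds in the liver. Pgrmc1 is a heme-binding membrane protein of the same compartment. The study dealt mainly with its part in P450 protein levels, and used RNA-seq to ask whether its loss alters P450 transcripts.

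The 7 Cyp2j genes lie side by side on chromosome 4 (96042660 to 96664171 of GRCm38, the assembly also called mm10), in a cluster of 621.5 kb that the RefSeq annotation lists with 10 genes and pseudogenes of the subfamily. Ephx1 lies apart on chromosome 1 (180989556 to 181017569) and Ephx2 on chromosome 14 (66084372 to 66124522). Because the Cyp2j genes are tandem copies, the sequences are shown first, since they bear on how well reads of one gene can be told from those of another. The stretch printed for each gene is 60 bases of GENCODE coding sequence around the codons of the heme-binding loop, which carries the cysteine that holds the heme iron in every P450. It crosses the junction of the last pair of coding exons, and in Cyp2j5 it runs between the outer positions chr4:96629612-96630735 on the minus strand. Capitals mark bases that differ from Cyp2j5.
Cyp2j5: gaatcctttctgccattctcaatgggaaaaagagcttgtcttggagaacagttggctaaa
Cyp2j6: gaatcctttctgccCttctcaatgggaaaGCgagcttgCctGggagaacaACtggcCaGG
Cyp2j9: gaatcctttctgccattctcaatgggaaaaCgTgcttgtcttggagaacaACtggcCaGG
Cyp2j8: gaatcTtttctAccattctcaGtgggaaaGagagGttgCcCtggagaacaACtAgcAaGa
Cyp2j13: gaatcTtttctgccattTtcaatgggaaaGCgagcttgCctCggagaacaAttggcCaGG
Cyp2j11: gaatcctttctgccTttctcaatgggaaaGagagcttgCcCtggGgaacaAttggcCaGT
Cyp2j12: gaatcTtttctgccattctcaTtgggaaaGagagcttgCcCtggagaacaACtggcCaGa

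Against Cyp2j5, the other genes differed at 7 (Cyp2j9) to 12 (Cyp2j8) of these 60 bases, in one of the best conserved parts of the protein. Over the whole coding sequence, the 21 pairs of Cyp2j genes shared between 75.8% and 88.9% of aligned bases, with a median of 78.4%. The closest pair was Cyp2j8 and Cyp2j11, and Cyp2j5 was at most 78.4% identical to any other member, Cyp2j6 being its closest relative by this measure. Of all stretches of 100 bases, the length of 1 read, in the annotated transcripts of the 9 members, 0% occurred in a transcript of another gene. Ephx1 shares 72 exonic bases on the same strand with the annotated gene Gm36961, while no exon of the other members overlaps that of another gene in GENCODE.

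The listed levels of the members spanned more than 4 orders of magnitude, in the same order in both libraries. Ephx2 was the most abundant, at 693.73 TPM in KO against 717.19 in WT. Ephx1 followed at 339.46 TPM in KO against 342.41 in WT. Cyp2j5, the most abundant Cyp2j transcript in both libraries, stood at 303.56 TPM in KO against 316.16 in WT. The Ephx1 and Cyp2j5 levels were close but did not overlap within counting error, with exact Poisson intervals in WT of 335.6 to 349.3 TPM for Ephx1 and 311.9 to 320.5 TPM for Cyp2j5. Cyp2j6 was at 34.82 TPM in KO against 40.74 in WT, and Cyp2j9 at 12.72 TPM in KO against 11.4 in WT. Below these came a gap, and 4 members had a mean under 1 TPM.

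**Figure D1:**
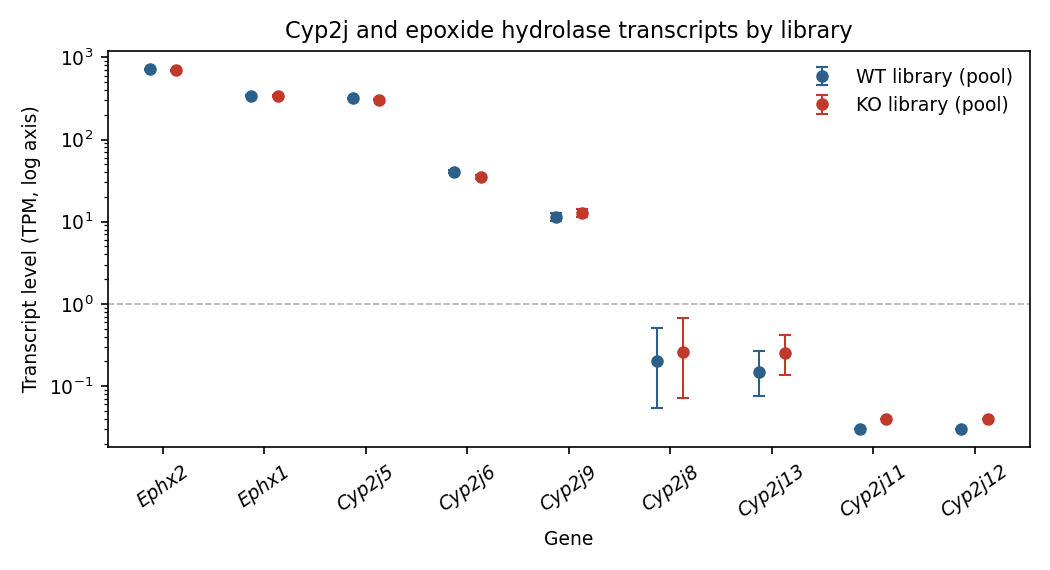
Level of each Cyp2j and epoxide hydrolase gene in the WT and the KO library, in TPM on a log axis, with genes ordered by mean level; each point is 1 pooled library, error bars are exact 95% Poisson intervals from estimated reads (none for Cyp2j11 and Cyp2j12, which have no read estimate), and the dashed line marks 1 TPM. The WT and KO points of each gene sit close together, while the genes run from 717.19 TPM for Ephx2 in WT down to 0.03 TPM for Cyp2j11 and Cyp2j12 in WT.

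Cyp2j8 was at 0.26 TPM in KO against 0.2 in WT, on 4 estimated reads in each library. Cyp2j13 was at 0.25 TPM in KO against 0.15 in WT, on 14 and 11 estimated reads. The counting intervals of Cyp2j8 and Cyp2j13 overlapped in both libraries, so their order is not determined. Cyp2j11 and Cyp2j12 were each listed at 0.04 TPM in KO against 0.03 in WT and have no estimate of reads. These values are no higher than the medians of 0.05 TPM in KO against 0.04 in WT of genes with 0 estimated reads. They are therefore not read as expression, and their folds are not interpreted. Expression of these genes below that level was not detectable at this depth.

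Cyp2j5 made up 86.3% of the summed Cyp2j TPM in KO and 85.7% in WT. Cyp2j6 contributed 9.90% in KO and 11.0% in WT, and Cyp2j9 3.62% in KO and 3.09% in WT. All other members together remained under 1% of the sum. The 3 abundant Cyp2j genes are neighbours at one end of the cluster, in the order Cyp2j6, Cyp2j9 and Cyp2j5. The rest of it holds the 4 genes with a mean under 1 TPM and the pseudogenes, which have no value. Beyond the ends of the cluster, the nearest gene with a value on the Cyp2j13 side was Hook1 (34.36 TPM in KO, 40.34 TPM in WT), 17.2 kb away, and on the Cyp2j5 side Gm12695 (0.05 TPM in KO, 0.04 TPM in WT), 59.4 kb away.

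**Figure D2:**
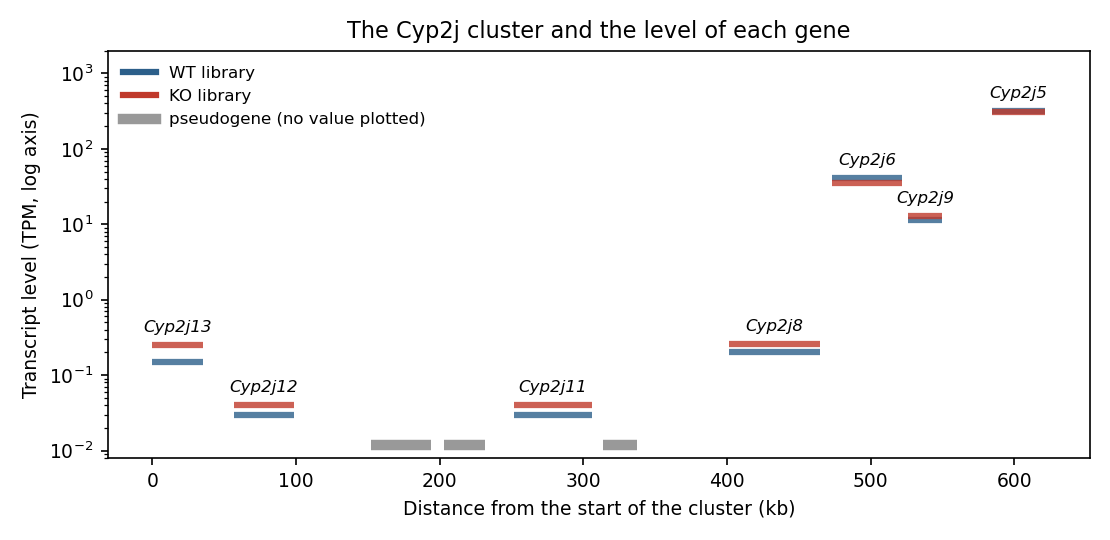
The Cyp2j cluster, with distance from its first base in kb on the horizontal axis and the level in TPM on a log axis; each bar spans a gene and is drawn at its level in the WT or the KO library, and grey bars mark pseudogenes without a plotted value. The 3 genes at the right end, Cyp2j6, Cyp2j9 and Cyp2j5, lie between 11.4 and 316.16 TPM, and the 4 other genes lie at or below 0.26 TPM.

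As sequence context for genes that differ so widely in level, the 250 bases before a transcript start in the RefSeq promoter table (GRCm38.p6, minus strand, written 5′ to 3′) are printed for the highest gene of the cluster, Cyp2j5 (chr4:96664120-96664369), the second, Cyp2j6 (chr4:96553652-96553901), and one listed near 0, Cyp2j11 (chr4:96348681-96348930). RefSeq windows were matched for 8 of the 9 members, all but Ephx2. The start used is not always the outermost one of a gene. The Cyp2j6 window lies wholly inside the RefSeq gene span, and those of Cyp2j5 and Cyp2j11 overlap the ends of theirs. Capitals mark matches on either strand to TATAAA (the TATA box core), AGGTCA (a core of many nuclear receptor sites), CCAAT and GGGCGG (the GC box core), which do not overlap one another here and were chosen after the values were seen.
Cyp2j5: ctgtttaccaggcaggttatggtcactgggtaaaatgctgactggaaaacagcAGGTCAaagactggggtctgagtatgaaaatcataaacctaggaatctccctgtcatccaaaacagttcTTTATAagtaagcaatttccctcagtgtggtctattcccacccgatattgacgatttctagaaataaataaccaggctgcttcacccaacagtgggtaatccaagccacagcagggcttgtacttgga
Cyp2j6: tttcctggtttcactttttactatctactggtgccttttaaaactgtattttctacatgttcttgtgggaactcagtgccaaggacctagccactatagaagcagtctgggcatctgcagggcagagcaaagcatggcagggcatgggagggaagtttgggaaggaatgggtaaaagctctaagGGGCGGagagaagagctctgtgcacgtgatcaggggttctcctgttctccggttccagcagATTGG
Cyp2j11: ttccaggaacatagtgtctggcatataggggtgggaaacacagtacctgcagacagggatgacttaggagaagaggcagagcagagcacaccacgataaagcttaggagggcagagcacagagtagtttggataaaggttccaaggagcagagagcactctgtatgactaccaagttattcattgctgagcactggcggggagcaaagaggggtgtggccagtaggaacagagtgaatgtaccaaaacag

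Cyp2j5 held 1 TATAAA and 1 AGGTCA, and no other Cyp2j window held either. TATAAA occurs in 12.4% and AGGTCA in 14.0% of the 32851 windows of the same length in the table. Cyp2j6 held 1 CCAAT and 1 GGGCGG, motifs found in 33.8% and 32.7% of all windows. Cyp2j11, and likewise Cyp2j9, held none of the 4. Both motifs of the Cyp2j6 window also occurred in that of Cyp2j12, a gene listed near 0. Of the other genes with a mean under 1 TPM, Cyp2j8 held 1 match to CCAAT, and each window of Cyp2j13 held 2 GC box cores. These motifs therefore did not track level within the cluster. The Ephx1 window held 1 TATAAA and 1 CCAAT. The GC content of the Cyp2j5 window was 44%, against a median of 52.4% over all windows. These matches describe letters only, and no binding was measured.

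None of the 5 members averaging 1 TPM or more differed between genotypes by the fold rule used for these libraries. With 1 TPM added to either library, the change of a gene was the log2 of KO over WT, which makes the changes of scarce transcripts look smaller than they are, and a gene was counted as up with a fold of at least 1.4 and as down with a fold of at most 0.6 on that scale. Among those 5 members, 0 passed in either direction. The other 4 members did not pass without the filter either. With 1 TPM added, however, genes at their levels could not reach either limit, so that outcome was fixed in advance. Of all 11623 genes averaging 1 TPM or more, 1.51% passed, 1.21% upward and 0.301% downward, so a count of 0 among 5 is near the background. The median log2 change of the 5 members was -0.05, and 1 of them lay above 0. Over all genes tested the median was -0.01, and 45.8% lay above 0.

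Cyp2j5 changed by -0.06 on the log2 scale. Its 95% interval of the ratio of the authors' means, a Clopper-Pearson interval from 14901 estimated reads in KO and 20788 in WT, ran from -0.08 to -0.02. The interval covers counting error only, and corresponds to 0.948-fold to 0.989-fold between these 2 libraries. Among the 905 genes with a mean of 100 to 1000 TPM, 54.1% changed by more than Cyp2j5 in either direction, so its shift was of ordinary size for its level. By TPM, Cyp2j5 ranked 15 among the 99 P450 genes of the table in KO and 14 in WT.

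Cyp2j6, a more widely expressed epoxygenase, had the largest shift of the abundant members, with a log2 change of -0.22. Its interval of -0.30 to -0.13, from 1681 and 2635 estimated reads, does not hold 0, and it corresponds to 0.810-fold to 0.916-fold. Of the 5222 genes with a mean of 10 to 100 TPM, 11.0% changed by more in either direction, and the 5th and 95th percentiles of that class were -0.26 and 0.19. Cyp2j6 therefore stood toward the lower edge of its class but within it. Hook1, the gene that flanks the cluster at the other end, changed by -0.23.

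Cyp2j9 lay in the other direction, with a log2 change of 0.15. Its interval of -0.05 to 0.39, on 317 and 380 estimated reads, holds 0, so no difference was detectable at this depth. The intervals of Cyp2j8 (-1.99 to 2.86) and Cyp2j13 (-0.46 to 2.06) hold 0 as well. Both reach past the limit for a rise, and that of Cyp2j8 also past the limit for a fall, so changes of that size were not detectable at these depths. The summed Cyp2j TPM was 351.69 in KO and 368.71 in WT, a log2 change of -0.07 with an interval of the ratio of means from -0.09 to -0.03. Without Cyp2j5, the sum was 48.13 TPM in KO against 52.55 in WT.

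**Figure D3:**
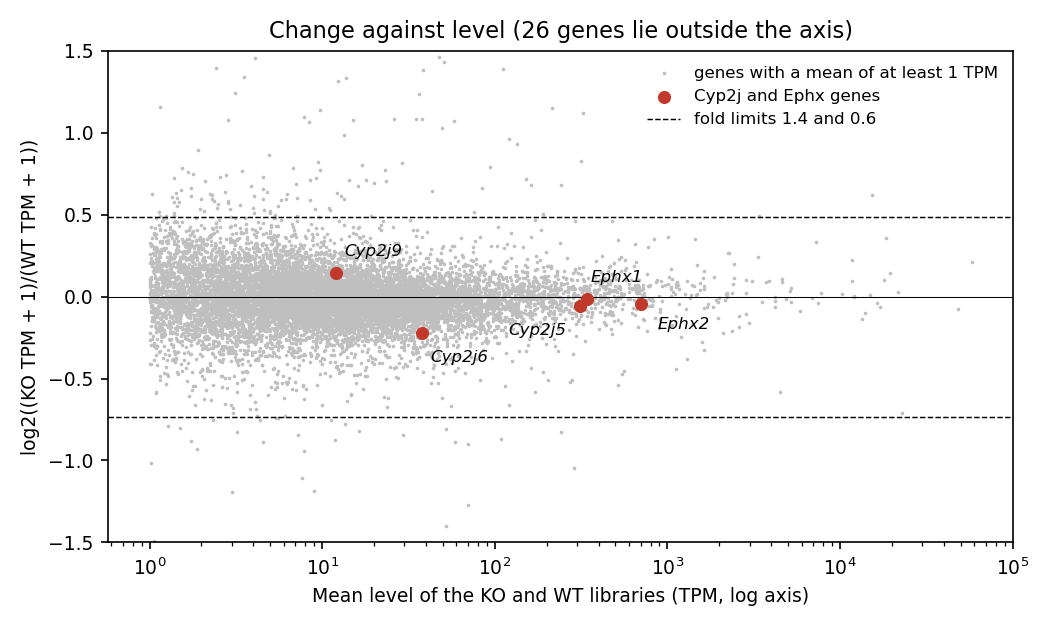
Change on the log2((KO TPM + 1)/(WT TPM + 1)) scale against the mean level in TPM on a log axis, for genes averaging 1 TPM or more (grey, 26 of them outside the axis) and for the 5 Cyp2j and Ephx genes at that level (red), with dashed lines at the fold limits of 1.4 and 0.6. The red points run from -0.22 for Cyp2j6 to 0.15 for Cyp2j9 and all lie inside the limits.

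The shifts of both hydrolase transcripts were no larger than that of Cyp2j5. Ephx2 changed by -0.05, with an interval of -0.06 to -0.01 on 18503 and 25572 estimated reads. Ephx1, a target of the xenobiotic receptors in liver, changed by -0.01, and its interval of -0.04 to 0.05 holds 0. The sign of the Ephx1 change turned when the authors' means replaced TPM, at 0.0034, and after centring on the median of genes of at least 10 TPM, at 0.01, so it has no direction. Ephx1 and Ephx2 together summed to 1033.19 TPM in KO against 1059.6 in WT. The level of Ephx2 was 1.97 times the summed Cyp2j level in KO and 1.95 times in WT.

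Ratios between members within a library do not depend on how the 2 libraries were scaled to each other. Over the 10 pairs of the 5 abundant members, the KO ratio divided by the WT ratio, from estimated reads with an exact conditional interval at 95%, held 1 for 6 pairs. All 4 other pairs involved Cyp2j6. Relative to Cyp2j9, Cyp2j6 was at 2.74 times in KO and 3.57 times in WT by TPM, and the ratio of the ratios was 0.765 (0.649 to 0.902). Cyp2j5 stood at 8.72 times Cyp2j6 in KO and 7.76 times in WT, with a ratio of 1.12 (1.05 to 1.199). For Cyp2j5 relative to Ephx1 that interval was 0.931 to 1.003, with 1 just inside it, and relative to Ephx2 it was 0.963 to 1.02. These intervals compare 2 libraries and not the mice behind them.

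Markers of liver cells were read beside these shifts. The hepatocyte list, led by Alb (serum albumin) at 47241.8 TPM in KO against 49729.1 in WT, had 5 of 13 genes above 0 and summed to 92687.1 TPM in KO against 95783.8 in WT, a log2 change of -0.05. Of 10 Kupffer cell and macrophage markers, 9 lay above 0, and their sum was 393.62 TPM in KO against 349.43 in WT. Of 10 endothelial markers 0 lay above 0, with sums of 220.49 and 242.35 TPM, and of 9 stellate cell markers 2 did, with sums of 277.35 and 307.86 TPM. Of 4 bile duct markers averaging 1 TPM or more, 3 lay below 0, with a median log2 change of -0.12 and Epcam lowest at -0.59. Of 8 blood cell markers averaging 1 TPM or more, 4 lay above 0 and 1, the beta-globin gene Hbb-bs, passed downward with a log2 change of -0.89. The other listed beta-globin gene, Hbb-bt, changed by -0.27 by TPM but by 0.04 by the ratio of the authors' means. How reads were divided between these genes was not tested. The kidney tubule list, included because Cyp2j genes are known from kidney, summed to 0.44 TPM in KO against 0.29 in WT. Only Umod in that list has an estimate of reads, 2 in KO and 0 in WT, so these sums are not read as expression. In whole liver, fewer cells of a type and less RNA per cell cannot be told apart, and the part of cell makeup in the shifts of Cyp2j5, Cyp2j6 and Ephx2 was not tested.

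Some genes of the Cyp2c family, which includes other epoxygenases of mouse liver, were higher in the KO library by the fold rule. Whether the enzymes of those genes form epoxides was not tested. In a list of 12 Cyp2c genes, of which Cyp2c70 is better known for hydroxylating bile acids, 9 had a mean of at least 1 TPM. Of these 9 genes, 3 passed upward (Cyp2c40, Cyp2c54 and Cyp2c55, the last exactly at the limit of 1.4), 0 passed downward, and 8 lay above 0. The median log2 change was 0.35, against -0.01 for all genes tested. Cyp2c29, the most abundant of them, was at 1620.18 TPM in KO against 1267.23 in WT, a log2 change of 0.35. Cyp2c40 had the highest change, 0.65, at 53.29 TPM in KO against 33.68 in WT. Cyp2c44, known as an arachidonate epoxygenase, was at 247.16 and 239.41 TPM and changed by 0.05. The summed level of the list was 3631.79 TPM in KO against 2981.15 in WT. The Cyp2j genes accordingly made up 8.83% of the sum of Cyp2j and these 12 listed Cyp2c genes in KO and 11.0% in WT. With Cyp2c70 left out, the shares were 10.2% and 13.1%. They are shares against this list and not against the whole Cyp2c family. Of the TPM of all 99 P450 genes, the Cyp2j genes held 1.68% in KO and 1.99% in WT. Many Cyp2c genes are close copies of one another, so the split of reads among them is uncertain.

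Some fatty acid omega-hydroxylases of the Cyp4 families compete with epoxygenases for arachidonic acid by oxidising the end of its chain. Which of the listed enzymes act on arachidonic acid was not tested. Of 12 listed genes averaging 1 TPM or more, 2 passed upward and 0 downward, while 7 lay above 0 and 5 below. The genes that passed were Cyp4a10 (189.06 TPM in KO, 114.47 TPM in WT, log2 change 0.72) and Cyp4a14 (103.6 and 65.2 TPM, log2 change 0.66). Cyp4v3, the most abundant, changed by -0.03, and Cyp4a12b was lowest at -0.14. Cyp4a12a, at 186.28 TPM in KO against 187.72 in WT, changed by -0.01. The median of the list was 0.06. Sequence shared among the Cyp4 genes was not examined, so the split of reads among them is uncertain.

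Genes for the supply or return of arachidonic acid were read next. Of 15 genes of release and reacylation averaging 1 TPM or more, 0 passed in either direction. Of all genes tested 1.51% passed, so a count of 0 in lists this short is near the background. The list held 19 genes, and those under 1 TPM were not counted. The counted genes ran from -0.29 for Acsl3 to 0.38 for Pla2g15, a lysosomal phospholipase. Acsl1, the main acyl-CoA synthetase of liver, was at 524.76 TPM in KO against 454.69 in WT, a log2 change of 0.21. All 6 genes of polyunsaturated fatty acid synthesis stayed inside the limits, from -0.12 for Elovl2 to 0.11 for Fads3, and the most abundant, the elongase Elovl5, changed by -0.04. Their median was -0.05.

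In the cyclooxygenase branch, which turns arachidonic acid into prostaglandins, 0 of 9 genes averaging 1 TPM or more passed. That is near the background of 1.51% over all genes tested. The changes ran from -0.13 for Ptgis to 0.14 for Tbxas1. Ptges3, a cytosolic prostaglandin E synthase and the most abundant of them, was at 118.17 TPM in KO against 124.34 in WT, a log2 change of -0.07. Ptgs1 was at 9.34 TPM in KO against 8.72 in WT. The inducible Ptgs2 had 0 estimated reads in KO and 1 in WT, and its listed values are not read as expression. Of the lipoxygenase branch, which leads to leukotrienes, only Alox5ap had a mean of at least 1 TPM, at 2.28 TPM in KO against 2.27 in WT. Among other genes of the epoxide hydrolase kind, Lta4h, the leukotriene A4 hydrolase, was at 18.49 TPM in KO against 21.99 in WT, a log2 change of -0.24. Mest, an imprinted relative, changed by -0.12. Ephx3 had 2 estimated reads in KO and 6 in WT, and Ephx4 had 0 and 1, where a count of 0 does not show absence. Neither gave a usable ratio.

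A list of P450 electron donors and cytochrome b5 partners held 5 genes, of which 4 had a value. None of these passed the rule, which is near the background of 1.51% over all genes tested. No value was read for the cytochrome b5 gene Cyb5a. Por was at 179.35 TPM in KO against 178.39 in WT, a log2 change of 0.01. Cyb5b, the cytochrome b5 of the outer mitochondrial membrane, changed by 0.01 and Cyb5r1 by 0.09, while Cyb5r3, the cytochrome b5 reductase, changed by -0.20 with an interval of the ratio of means from -0.23 to -0.14.

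**Figure D4:**
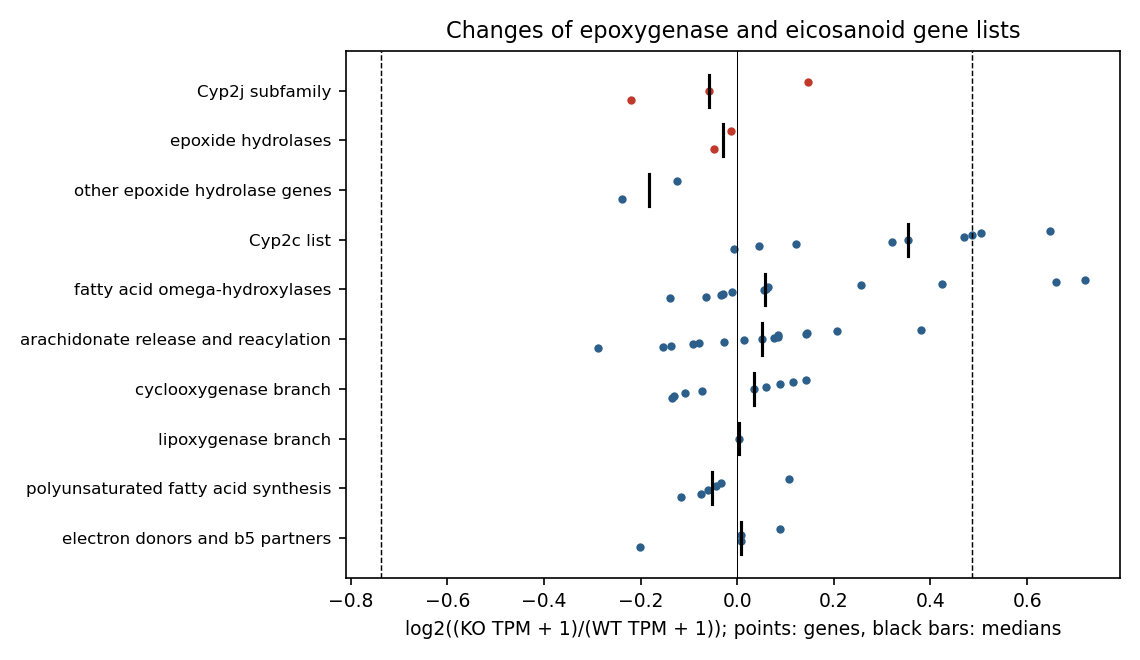
Change of each gene averaging 1 TPM or more on the log2((KO TPM + 1)/(WT TPM + 1)) scale, by list, with the Cyp2j and epoxide hydrolase genes in red, other lists in blue, black bars at the medians and dashed lines at the fold limits. Points at or past the upper limit occur in the Cyp2c and omega-hydroxylase lists, whose medians are 0.35 and 0.06, and in no other list drawn.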

How the data were processed

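Total liver RNA was measured in 1 pooled library per genotype, and samples were grouped by the genotype in their labels. Per the study's methods and the submitters' processing notes, the authors converted base calls with CASAVA 1.8.2 and ran RSEM 1.2.09 with Bowtie on paired reads of 100 bases against mm10. RSEM divides a read with several possible genes among them. The authors deposited posterior mean TPM for 24054 genes, with columns that sum to 1005325 in KO and 994702 in WT. For 16318 genes they also deposited, from EBSeq, a signal per library, which is the estimated reads divided by a size factor and is called the authors' mean here. Its columns carry no genotype in their names and were assigned from the column names of the study's own gene table. The authors' fold changes and probabilities in the same table were not used.

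The most frequent value of the means, 1.16 in KO and 0.860 in WT, was taken as 1 read. Within a tolerance of 0.02, 78.4% and 75.0% of values were whole reads, so no count test was run. Reads were rounded, and intervals (Clopper-Pearson for ratios, exact Poisson for levels, 95%) cover counting error only. The pseudocount was 1 TPM and the filter a mean of at least 1 TPM. With 1 library per genotype no test was made. Calls and intervals were tried on simulated Poisson reads of well-covered genes, on the scale of the authors' means, with changes beyond the fold limits. That simulation did not cover scarce members, folds near the limits or the spread between mice. Named genes were the members, Pgrmc1, Por, Alb, the genes nearest the cluster, and from each pathway list the most abundant gene, those past the fold rule and the extremes. Other genes (Cyp2c44, Cyb5b, Ptgs1, Ptgs2, Epcam and Hbb-bs among them) were added after their values were seen. The members and lists were chosen with earlier results of these data known. Sequences came from RefSeq (GRCm38.p6) and GENCODE M21. Intervals were computed in Python 3.11.15 with scipy 1.17.1.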

Additional observations from a re-analysis of the deposited data

How the results depend on the processing

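No paired analysis was possible because KO and WT were each sequenced as 1 pooled library. The count of members past the fold rule was 0 under all 9 alternatives run on it. Apart from the setting without a filter, these tested only the 5 members averaging 1 TPM or more. The setting without a filter kept the pseudocount of 1 TPM, under which the 4 scarcer members could not reach the limits. The count of 0 therefore covers only the 5 abundant members. The log2 changes of Cyp2j5 (-0.06 to -0.04), Ephx2 (-0.05 to -0.03), Cyp2j6 (-0.23 to -0.20) and Cyp2j9 (0.15 to 0.17) kept their sign under the other pseudocount, the authors' means, centring and rescaling, and that of Ephx1 ran from -0.01 to 0.01. Cyp2j13 ran from 0.12 to 0.72 and Cyp2j8 from 0.07 to 0.35, inside their counting intervals. The upper value of Cyp2j13, with the authors' means, lies past the limit for a rise, but the filter left this gene out of the count. The change of summed Cyp2j TPM was -0.12 without Cyp2j5, which leaves only the lower genes in the sum. The counts over all genes, 141 up and 35 down, became 280 and 70 with a pseudocount of 0.1 TPM, 296 and 80 with the authors' means, 45 and 13 with fold limits of 2 and 0.5, 627 and 640 with 1.2 and its inverse, and 62 and 17 with a minimum of 10 TPM. With the inverse of 1.4 as the limit for falls, 118 fell below it, and 54.4% of all calls were then upward against 80.1%. The median of the cyclooxygenase list turned to -0.01 without a filter on low values, and that of the Cyp2c list became 0.22. Without replicate libraries, the spread between mice is unknown for every member, and depth further limits Cyp2j9, Cyp2j8, Cyp2j13, Cyp2j11 and Cyp2j12.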

Other observations

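Transcription factors and lipid sensors tied to these genes were also read from the table. Of 10 transcription factors of P450 and Ephx genes, 0 passed the fold rule, near the background of 1.51% over all genes tested. Hnf4a, the most abundant, was at 262.25 TPM in KO against 277.08 in WT. Foxa2 was lowest, at 14.7 TPM in KO against 20.96 in WT, a log2 change of -0.48, and Nr1i3, the receptor CAR, was highest, with a log2 change of 0.20. Nr1i2, the receptor PXR, changed by -0.24, and Nfe2l2, the regulator NRF2 that raises Ephx1 among other genes, by 0.04; both were named after their values were seen. Of the 4 lipid-sensing receptors averaging 1 TPM or more, Rxra, the most abundant, changed by 0.04, Ppard was highest at 0.27 and Pparg lowest at -0.09. Farther from the cluster on the Hook1 side, 9530080O11Rik was at 0.54 TPM in KO against 1.02 in WT, and on the Cyp2j5 side E130114P18Rik was at 0.07 TPM in KO against 0.05 in WT.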
